A study of Rattus norvegicus with 6 samples.

Results

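The 10 genes studied here act in the decision to enter S phase: the G1 cyclins Ccnd1, Ccnd2, Ccne1 and Ccne2 and the CDK inhibitors Cdkn1a, Cdkn1b, Cdkn1c, Cdkn2a, Cdkn2b and Cdkn2c. They were followed in uninjured and crushed rat sciatic nerve and were chosen by gene symbol. All 10 of 10 were found among the 30957 genes of the mRNA table, and all 10 were among the 15195 genes that passed a filter on low counts. The series held 6 libraries of total RNA, depleted of ribosomal RNA, from 1-month-old Sprague-Dawley rats (3 groups of 2). The control rats, labelled a normal control, underwent surgery that exposed the left sciatic nerve without clamping it. The D4 and D7 rats had the middle of that nerve clamped with forceps and were sampled 4 or 7 days later. Whole nerve tissue was sequenced, without sorting cells. The 2 libraries of a group came from different rats and are called a and b here.

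D-type cyclins bind the kinases Cdk4 and Cdk6 and link growth signals to the cell cycle, and E-type cyclins bind Cdk2 at the passage into S phase. Together these kinases phosphorylate the retinoblastoma protein and release E2F transcription factors. The CIP/KIP inhibitors p21 (Cdkn1a), p27 (Cdkn1b) and p57 (Cdkn1c) bind cyclin-CDK complexes, while the INK4 inhibitors p16 (Cdkn2a), p15 (Cdkn2b) and p18 (Cdkn2c) bind Cdk4 and Cdk6. In an intact nerve most Schwann cells are quiescent, and after a crush Schwann cells of the distal stump lose their myelin, divide and later differentiate again while macrophages enter the tissue.

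The mRNA libraries held 18727255 to 25350886 counted fragments. Between 8.55% and 17.63% of them fell on the 10 most abundant genes, and the 2 highest shares were those of the control libraries. Genes were called up- or downregulated at a Benjamini-Hochberg adjusted p under 0.05 in edgeR's quasi-likelihood test together with a change of at least 2-fold. The nerve label was checked against 10 Schwann cell markers, of which none was at 0 in every library. Their summed level was 24570 to 34640 FPKM (fragments scaled to transcript length and library total) in control, 3192 to 3538 at D4 and 5960 to 8878 at D7. The sum does not stand for every marker: at D4, 5 were downregulated, 2 upregulated and 3 not called. In bulk tissue, fewer cells of a type and less RNA per cell cannot be told apart. The trimmed mean of M values (TMM) scaling set the middle of the distribution: without it, the median log2 fold change of all genes moved from -0.04 to 0.25 at D4 and from 0.01 to 0.31 at D7. The split of upregulated and downregulated genes moved with it, from 1706 and 1627 to 2430 and 1077 at D4, and from 1493 and 1370 to 2215 and 930 at D7.

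At D4, 5 of the 10 genes were upregulated (Ccnd1, Ccne1, Ccne2, Cdkn1a and Cdkn2a) and 1 was downregulated (Cdkn1b), where 21.9% of all tested genes were called in either direction. At D7 the same 5 genes were upregulated and none of the 10 was downregulated, against 18.8% of all genes called. Of these 5, Cdkn2a had 5 and 0 control fragments and passed the low-count filter only through the injured libraries. Between D4 and D7, Cdkn1b was called and was higher at D7, against 2.18% of all genes called. Control libraries enter both injury comparisons, and D4 libraries enter the last comparison as well, so these counts are not independent of each other.

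**Figure D1:**
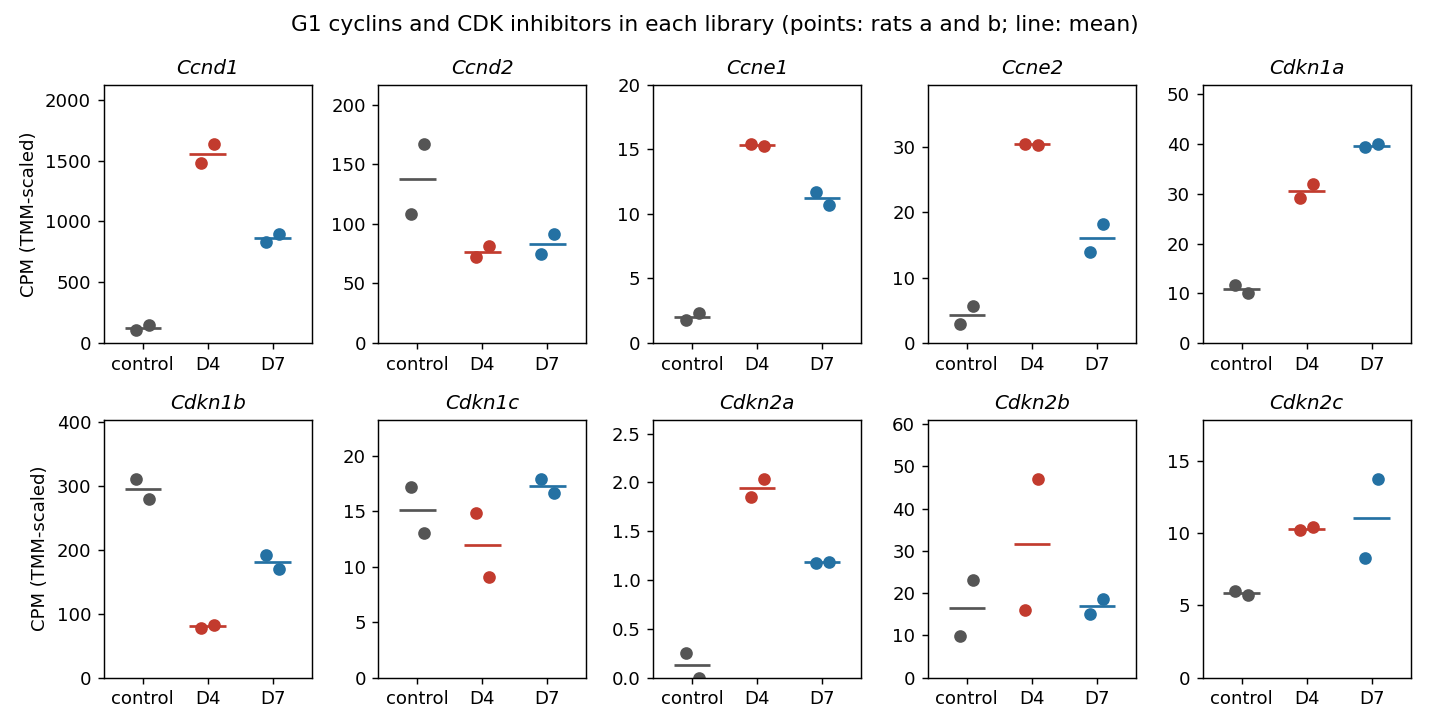
Each panel plots 1 gene in CPM, counts scaled to library total and TMM factor (y axis, starting at 0, with its own range) against the 3 groups, with 1 point per rat and a line at the mean. Ccnd1 stood at 105.7 and 146.6 in control and at 1482 and 1632 at D4, while Cdkn1b moved from 310.6 and 279.8 down to 77.08 and 83.08 and stood between at D7.

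Ccnd1 encodes cyclin D1, the D-type cyclin most responsive to mitogens. It lies at 1:218090750-218100325 in the Rnor_6.0 build. Its fragment counts were 2053 and 2432 in the control rats, 36095 and 44171 at D4, and 17728 and 18064 at D7. The groups did not overlap, and every D7 library lay below both D4 libraries and above both controls. The fitted rise was 12.34-fold at D4 (log2 fold change 3.63, SE 0.19, edgeR, Benjamini-Hochberg adjusted p = 0.000131) and 6.841-fold at D7 (2.77, SE 0.18, adjusted p = 0.000381). From D4 to D7 the log2 difference was -0.85 (SE 0.17, edgeR, Benjamini-Hochberg adjusted p = 0.0493), a change of less than 2-fold that was therefore not called.

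Ccnd2 encodes cyclin D2, which binds the same kinases. It lies at 4:159674885-159697207. Counts were 2093 and 2762 in control, 1753 and 2193 at D4, and 1594 and 1853 at D7. After scaling to depth these were 107.8 and 166.5, 71.95 and 81.01, and 74.84 and 91.68 CPM, so that each injured library lay below both controls. The log2 differences from control, -0.84 at D4 (SE 0.22, edgeR, Benjamini-Hochberg adjusted p = 0.0241) and -0.72 at D7 (SE 0.22, adjusted p = 0.0455), fell short of 2-fold. Without control rat a both differences reached 2-fold and were called, with -1.12 at D4 (edgeR, Benjamini-Hochberg adjusted p = 0.00513) and an adjusted p of 0.00941 at D7. Without control rat b they were -0.50 at D4 (edgeR, Benjamini-Hochberg adjusted p = 0.0602) and -0.38 at D7 (0.133), and without TMM scaling -0.56 (0.0904) and -0.43 (0.17). Control rat b, in which Ccnd2 was highest, also had a summed level of 5 pericyte and smooth muscle markers of 1625 FPKM against 191.8 to 401.7 in the other 5 libraries, none of the markers being at 0 in every library. The part of those cells in the Ccnd2 value was not tested.

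The balance of the D cyclins can be read within each library without scaling between libraries. Per 100 Ccnd2 fragments there were 98.09 and 88.05 Ccnd1 fragments in control, 2059 and 2014 at D4, and 1112 and 974.9 at D7. These groups did not overlap, although an exact two-sided permutation test of 2 against 2 libraries cannot go below p = 0.33. Per length, Ccnd1 made up 16.81% and 15.35% of the summed FPKM of Ccnd1 and Ccnd2 in control, 80.92% and 80.58% at D4, and 69.61% and 66.75% at D7. With the third D cyclin, Ccnd3, in the sum, the share of Ccnd1 was 12.14% and 12.25%, then 65.61% and 66.28%, then 40.78% and 43.72%. Ccnd3 itself had counts of 1308 and 1115 in control, 2897 and 3292 at D4 and 5010 and 3967 at D7. It was called at D7 (log2 fold change 1.68, SE 0.11, edgeR, Benjamini-Hochberg adjusted p = 0.000393) and not at D4 (0.84, adjusted p = 0.00194). Its D7 level lay above both D4 libraries, where Ccnd1 lay below them.

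The E cyclins were low in the intact nerve and rose on both days. Ccne1 (1:94485832-94494980) had counts of 34 and 38 in control, 375 and 414 at D4, and 250 and 216 at D7. Neither injured group overlapped with control. The rise was 7.604-fold at D4 (log2 fold change 2.93, SE 0.20, edgeR, Benjamini-Hochberg adjusted p = 0.000226) and 5.559-fold at D7 (2.47, SE 0.20, adjusted p = 0.000594). Ccne2 (5:24434872-24446406) had counts of 55 and 93, 741 and 823, and 297 and 368 in the same order. Its D7 libraries lay between control and D4. The rise was 7.257-fold at D4 (2.86, SE 0.32, edgeR, Benjamini-Hochberg adjusted p = 0.00106) and 3.836-fold at D7 (1.94, SE 0.31, adjusted p = 0.00555). From D4 to D7 the log2 differences were -0.45 for Ccne1 (edgeR, Benjamini-Hochberg adjusted p = 0.176) and -0.92 for Ccne2 (SE 0.29, adjusted p = 0.12), and neither passed the test. Per 100 Ccne2 fragments there were 61.82 and 40.86 Ccne1 fragments in control, 50.61 and 50.3 at D4 and 84.18 and 58.7 at D7, so Ccne1 had fewer fragments than Ccne2 in every library and the control and D7 ranges overlapped.

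The stretch before Ccne1 is shown because it is a member that rose and that has an entry among the RefSeq promoters used here, as have 6 of the 10 genes (Ccne1, Cdkn1a, Cdkn1b, Cdkn2a, Cdkn2b and Cdkn2c). For Ccne1 only bases before its listed gene span are printed, chr1:99927987-99928159 of build GRCr8, minus strand, with GC boxes (GGGCGG, searched on both strands) in capitals.
Ccne1: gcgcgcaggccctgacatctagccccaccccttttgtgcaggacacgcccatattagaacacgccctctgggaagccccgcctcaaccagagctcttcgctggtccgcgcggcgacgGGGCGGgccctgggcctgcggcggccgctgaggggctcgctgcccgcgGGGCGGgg
A window is the 250 bases before 1 listed start, and other listed transcripts can begin further out: 173 of these bases precede the whole gene span in Ccne1, 138 in Cdkn1a, 199 in Cdkn2b, 19 in Cdkn1b and 0 in Cdkn2a and Cdkn2c. In these windows Ccne1 held 3 GC boxes, Cdkn2b 3, and Cdkn1b, Cdkn2a and Cdkn2c 1 each. The motif was present in 30.5% of 33469 RefSeq promoter windows of that length. Common spellings of the E2F site (TTTCCCGC, TTTGGCGC, TTTCGCGC and TTTGCCGC, both strands) matched in none of the 6 windows and in 1.73% of all windows. That says only that these letters are not in these windows.

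**Figure D2:**
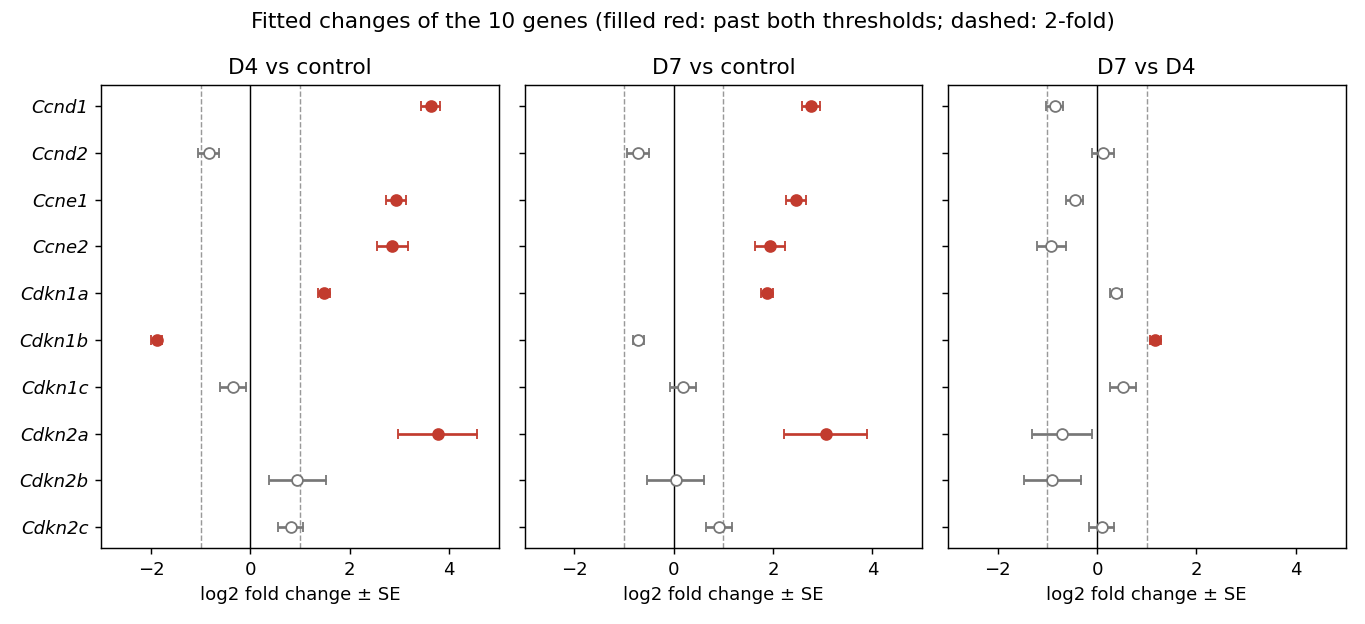
Points are fitted log2 fold changes of the 10 genes with bars of 1 SE, in 3 panels, 1 per comparison, with 0 as a solid line and 2-fold as dashed lines. Filled red points passed both thresholds: 6 genes at D4, 5 at D7 and Cdkn1b between the injury days.

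The CIP/KIP inhibitors p21 and p27 moved in opposite directions after the crush. Cdkn1a (20:6351458-6358864), which encodes p21, had counts of 225 and 167 in control, 709 and 864 at D4, and 841 and 807 at D7. Every injured library lay above both controls. The rise was 2.814-fold at D4 (log2 fold change 1.49, SE 0.12, edgeR, Benjamini-Hochberg adjusted p = 0.000376) and 3.662-fold at D7 (1.87, SE 0.12, adjusted p = 0.000381). In CPM the D7 libraries (39.49 and 39.93) lay above the D4 libraries (29.10 and 31.92), and the difference did not pass the test (log2 0.38, edgeR, Benjamini-Hochberg adjusted p = 0.115). Among the 5 upregulated members, Cdkn1a was the one whose mean was higher at D7 than at D4.

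Cdkn1b (4:168689163-168693964), which encodes p27, a brake of quiescent cells, had counts of 6030 and 4641 in control, 1878 and 2249 at D4, and 4085 and 3427 at D7. No groups overlapped, and the D7 libraries stood between the others. The gene was 3.686-fold lower at D4 (log2 fold change -1.88, SE 0.11, edgeR, Benjamini-Hochberg adjusted p = 0.000172). At D7 it was 1.634-fold lower than in control (-0.71, SE 0.11, edgeR, Benjamini-Hochberg adjusted p = 0.0045), under the 2-fold threshold. It rose 2.256-fold from D4 to D7 (1.17, SE 0.11, edgeR, Benjamini-Hochberg adjusted p = 0.0117). That last call was lost without D4 rat a (1.12, adjusted p = 0.161 by edgeR with Benjamini-Hochberg adjustment) and without D4 rat b (1.23, adjusted p = 0.112), settings with 1 library left at D4. There edgeR called 0 of 15492 and 0 of 15463 genes, with 2054 and 2296 at an unadjusted p under 0.05. The summed FPKM of the 10 Schwann cell markers had the same order of groups, but the single markers were mixed. At D4, 5 of the 10 were downregulated, 2 upregulated and 3 not called. At D7, 3 were downregulated, 2 upregulated and 5 not called. From D4 to D7, 3 were upregulated and 7 not called. Ngfr, a receptor of immature and repair Schwann cells, ran the other way. It differed from control by 6.46 at D4 and 5.62 at D7 on the log2 scale. The part of Schwann cell state or number in the Cdkn1b values was not tested.

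Short stretches of the Cdkn1b window are shown because CCAAT boxes (CCAAT, both strands, in capitals) were found there in Cdkn1b and in none of the other 5 windows. They are chr4:169491344-169491373 and chr4:169491424-169491453 of GRCr8, plus strand, both inside the listed gene span, and 34.0% of all RefSeq windows held such a box.
Cdkn1b upper: ccggcgcccagaCCAATggagctcctcctc
Cdkn1b lower: ttccaccgccatATTGGgcaactaaaaaag
FOXO sites (GTAAACA, both strands; in 3.21% of all windows) were searched because FOXO factors are known to act on Cdkn1b, and no match was found in any of the 6 windows. The AP-1 site (TGANTCA; in 6.34%) and the E-box (CACGTG; in 5.59%) had no match either. Only 19 bases of the Cdkn1b window precede its gene span, so these searches do not cover sequence further upstream.

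Cdkn1c (1:216661080-216663721) is an imprinted gene expressed from the maternal allele and encodes the inhibitor p57. Its counts were 333 and 216 in control, 361 and 245 at D4, and 381 and 336 at D7. In CPM these were 17.15 and 13.02, 14.82 and 9.05, and 17.89 and 16.62, and both injured groups overlapped with control. The log2 differences from control were -0.34 at D4 (SE 0.26, edgeR, Benjamini-Hochberg adjusted p = 0.328) and 0.19 at D7 (SE 0.26, adjusted p = 0.591). Of 12 tested imprinted genes, 1 was upregulated (Dlk1, 3.24) and 1 downregulated (Magel2) at D4, where 21.9% of all tested genes were called. Dlk1 was upregulated at D7, where that share was 18.8%. Magel2 had few fragments, 11 and 17 in control, 4 and 0 at D4, and 3 and 2 at D7. It passed the low-count filter only through the control libraries.

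In the CIP/KIP family as a whole the summed FPKM was 161.2 and 148.1 in control, 63.48 and 66.38 at D4 and 138.1 and 126.1 at D7. Cdkn1b made up 94.71% and 95.24% of it in control, 73.74% and 76.16% at D4, and 84.20% and 82.67% at D7. The share of Cdkn1a was 2.31% and 2.24%, then 18.20% and 19.12%, then 11.33% and 12.72%. Cdkn1b thus stayed the largest CIP/KIP transcript in every library. Per 100 Cdkn1b fragments there were 34.05 and 52.4 Ccnd1 fragments in control, 1922 and 1964 at D4 and 434 and 527.1 at D7, and the groups did not overlap. For Cdkn1a the ratio to 100 Cdkn1b fragments was 3.731 and 3.598, then 37.75 and 38.42, then 20.59 and 23.55.

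**Figure D3:**
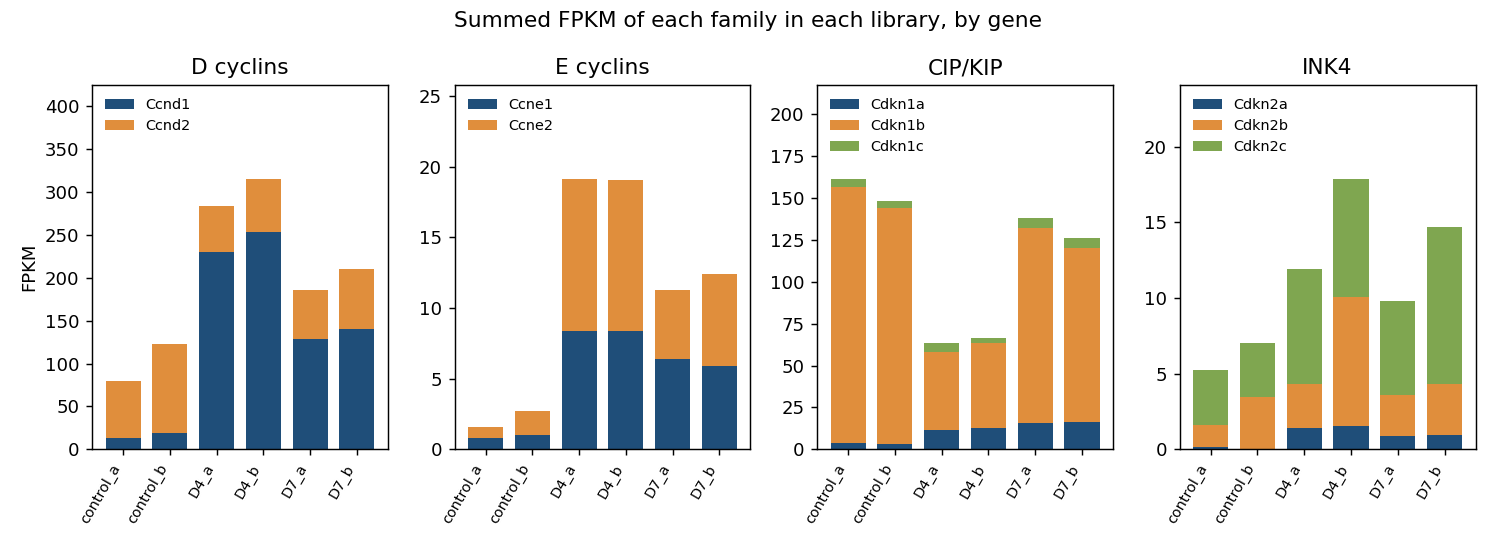
Stacked bars give the summed FPKM (y axis, from 0) of the D cyclins Ccnd1 and Ccnd2, the E cyclins, the CIP/KIP inhibitors and the INK4 inhibitors in each of the 6 libraries, divided by gene. The CIP/KIP sum was 161.2 and 148.1 in control and 63.48 and 66.38 at D4, while the summed E cyclins were 1.581 and 2.676 in control and 19.1 and 19.08 at D4.

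The INK4 genes were at low levels in all groups. Cdkn2a (5:107823330-107841175) gives rise to both p16 and the unrelated ARF protein from different first exons, and the deposited counts are per gene, so these transcripts cannot be told apart. It had 5 and 0 fragments in control, 45 and 55 at D4, and 25 and 24 at D7. The groups did not overlap. Summed over libraries and corrected for depth, the counts were 14.0 times those of control at D4 (95% interval 5.8 to 44.1, counting error only) and 8.5 times at D7 (3.41 to 27.3). The gene was called on both days (log2 fold change 3.77, SE 0.80, edgeR, Benjamini-Hochberg adjusted p = 0.0116 at D4, and 3.06, SE 0.83, adjusted p = 0.0311 at D7). Because it passed the low-count filter only through the injured libraries, a call could hardly be other than a rise. The D4 call was lost without D4 rat a (edgeR, Benjamini-Hochberg adjusted p = 0.0533) or b (0.061), and the D7 call without D4 rat a (0.0725) or b (0.0736) and without D7 rat a (0.0823) or b (0.0744). The size of the change rested on the control libraries: without control rat b the log2 fold change was 2.89 at D4 and 2.17 at D7, and without control rat a, which leaves a control at 0 fragments, it was 8.41 and 7.70, values that depend on the prior count of the fit.

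Cdkn2b (5:107845951-107858104), 4775 bases from Cdkn2a, encodes p15, a known target of TGF-beta signals. Its counts were 190 and 383 in control, 392 and 1271 at D4, and 321 and 377 at D7. D4 rat b stood far above D4 rat a, and the groups overlapped. The log2 differences were 0.95 at D4 (SE 0.58, edgeR, Benjamini-Hochberg adjusted p = 0.227) and 0.04 at D7 (SE 0.58, adjusted p = 0.963). Cdkn2c (5:129347732-129352886), which encodes p18, had counts of 117 and 95, 249 and 283, and 177 and 278. Each injured library lay above both controls, with log2 differences under 2-fold of 0.81 at D4 (SE 0.26, edgeR, Benjamini-Hochberg adjusted p = 0.0465) and 0.91 at D7 (SE 0.26, adjusted p = 0.0385). Without D7 rat a the D7 difference was 1.25 (edgeR, Benjamini-Hochberg adjusted p = 0.0111), and without TMM scaling the differences were 1.10 and 1.20 (adjusted p = 0.0164 and 0.0131), all 3 past the threshold. Without D7 rat b the D7 difference was 0.50 (edgeR, Benjamini-Hochberg adjusted p = 0.141). With a replicate block the adjusted p was 0.0543 at D4 and 0.0501 at D7 in edgeR, and without control rat a or b it was 0.108 or 0.134 at D4 and 0.0953 or 0.116 at D7. Of 12 regulators of the Cdkn2a-Cdkn2b locus, Ezh2, the methyltransferase of Polycomb complex PRC2, was upregulated at D4 (1.70, SE 0.14) and D7 (1.67), the PRC1 member Cbx7 was downregulated (-1.56, SE 0.16, and -1.01), and Kdm6b, a histone demethylase, was upregulated at D7 (1.27). The other 10 regulators at D4 and the other 9 at D7 were not called, where 21.9% and 18.8% of all tested genes were called. The median of the 12 was 0.01 at D4 and 0.17 at D7, against -0.04 and 0.01 for all genes.

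The order of the 10 genes by level per length changed with injury. In control the FPKM values were led by Cdkn1b (146.9 ± 8.271, SD, n = 2) and Ccnd2 (84.98 ± 27.14), followed by Ccnd1 (16.09 ± 3.959) and Cdkn1c (4.266). At D4 Ccnd1 led with 241.9 ± 16.83 (SD, n = 2), ahead of Ccnd2 (57.71 ± 4.911), Cdkn1b (48.68 ± 2.644) and Cdkn1a (12.12). At D7 Ccnd1 (134.7 ± 8.134) was followed by Cdkn1b (110.3 ± 8.49) and Ccnd2 (63.15 ± 9.661). The first 4 ranks did not overlap with their next neighbour in any group. Below them, the control ranges of Cdkn2c, Cdkn1a, Cdkn2b, Ccne2 and Ccne1 each overlapped the next in that order, as did those of Cdkn2c, Cdkn2b and Cdkn1c at D4 and of Cdkn2c, Ccne1, Cdkn1c and Ccne2 at D7. Cdkn2a was the lowest in every group (0.07955, 1.481 and 0.9057 FPKM). These ranks rest on the lengths behind the deposited FPKM, which were 6866 bases for Ccnd1 and 1414 for Ccnd2. By fragment counts alone the control levels of Ccnd1 and Ccnd2 were close to each other. For Cdkn1c the implied length of 3085 bases exceeded its span of 2642 bases.

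The partners and targets of these genes were described from lists. Of the kinases, Cdk4 (counts 1797 and 2036 in control, 4389 and 4875 at D4, 4280 and 3625 at D7) and Cdk2 were higher by 0.74 and 0.85 at D4 on the log2 scale, and Cdk6 was at -0.50, all under 2-fold. At D7 the differences were 0.82 for Cdk4, 0.48 for Cdk2 and -0.82 for Cdk6, also under 2-fold. Ccna2, the S phase cyclin, had counts of 56 and 102, 2081 and 2449, and 1079 and 1037, and was upregulated on both days (log2 fold change 4.30, SE 0.31, edgeR, Benjamini-Hochberg adjusted p = 0.000278 at D4, and 3.51 at D7). Of 5 tested partners, 1 was called at D4 and 2 at D7, where 21.9% and 18.8% of all tested genes were called. Cdkn2d, the remaining INK4 gene, was not found under that symbol and so was not analysed here.

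Among 13 pocket proteins and E2F factors, 6 were upregulated and 1 downregulated at D4, and 5 were upregulated at D7. Of all tested genes, 21.9% were called at D4 and 18.8% at D7. The atypical repressors E2f7 (3.81 at D4, 3.25 at D7) and E2f8 (3.41 and 2.81) had the largest log2 changes, followed by Rbl1 (2.02 and 1.70), E2f1 (1.83 and 1.04) and E2f2 (1.69 and 1.52). Tfdp1 (1.07) passed at D4, Tfdp2 was downregulated at D4 (-1.61), and Rb1 itself was at -0.64 and -0.50. All 12 of 12 S phase genes known as E2F targets were upregulated at D4 (median 2.92; Rrm2 5.31, Mcm5 3.42) and 11 of 12 at D7 (median 2.16; Rrm2 4.00, Cdt1 2.71). Between D4 and D7 their median log2 difference was -0.60. A further list of 9 tested genes held ubiquitin ligase parts that degrade p27 or G1 cyclins and, beside them, Cdc25a. Of these, Cks1b (1.45), Skp2 (1.32) and Cdc25a (1.13) were upregulated at D4 and Skp2 (1.15) at D7. Skp2 and Cks1b belong to the ubiquitin ligase that targets p27 protein, which was not measured.

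**Figure D4:**
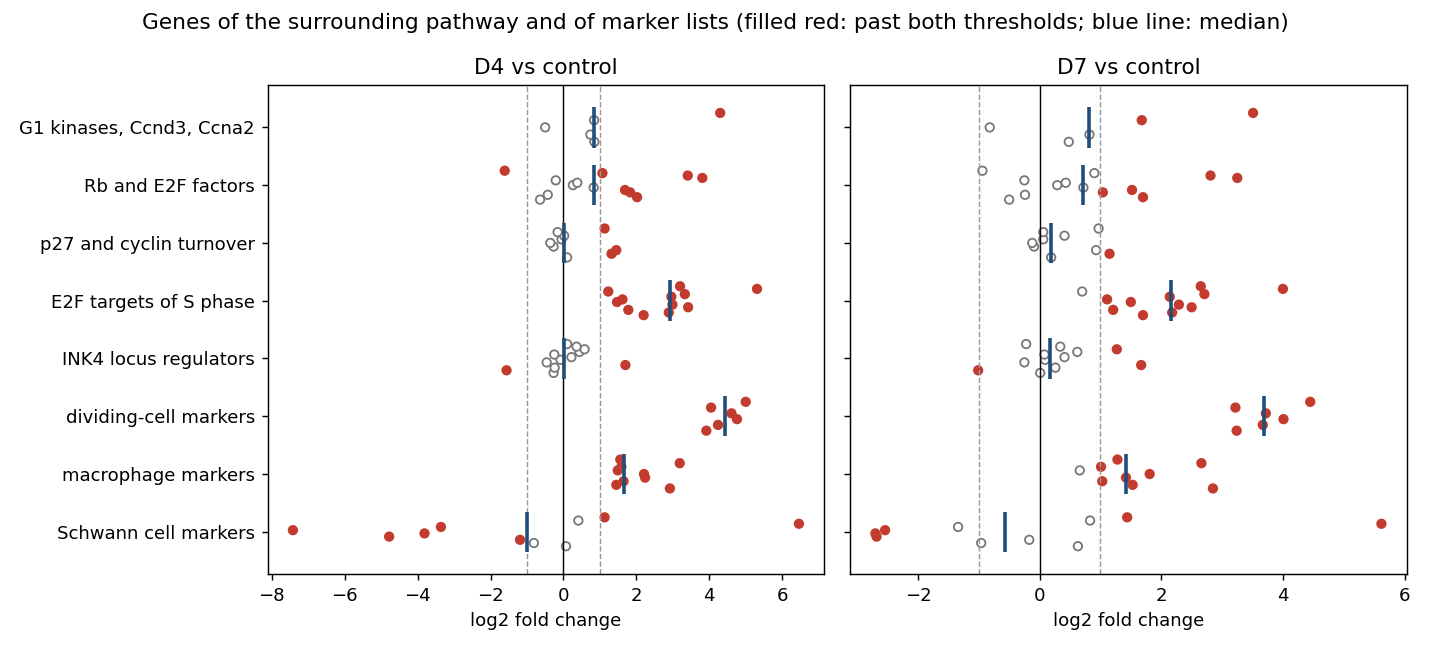
Each point is 1 gene of a list, placed by its fitted log2 fold change at D4 (left) or D7 (right) against control, filled red where it passed both thresholds, with a blue line at the median of the list. All 12 E2F targets and all 6 dividing-cell markers were upregulated at D4, while Schwann cell markers lay on both sides of 0.

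Markers of dividing cells and of macrophages were measured beside these genes. All 6 markers of dividing cells were upregulated on both days (median log2 fold change 4.43 and 3.70). Mki67 had counts of 336 and 556 in control, 8333 and 11543 at D4 and 4906 and 5007 at D7. The summed level of the 6 was 5.611 and 11.42 FPKM in control, 199 and 228 at D4 and 129.6 and 137.4 at D7, the same order of groups as for Ccnd1, Ccne1 and Ccne2. Of 9 macrophage markers, 9 were upregulated at D4 (median 1.65) and 8 at D7 (median 1.42), with summed levels of 71.51 to 76.93, 325.6 to 343 and 229.2 to 279.1 FPKM and none of the markers at 0 in every library. Of 5 tested fibroblast markers 1 was downregulated at D7, and of 5 endothelial markers 3 were downregulated at D4 and 5 at D7. The summed adipocyte markers ranged from 4.689 to 555.3 FPKM over the 6 libraries and the skeletal muscle markers from 4.404 to 38.74 FPKM. The part of any of these cells in the changes of the 10 genes was not tested.

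Long noncoding RNAs (lncRNAs) at the same loci were taken from the lncRNA table, whose libraries held 2694777 to 3043817 fragments. Within 10 kb of or overlapping the 10 genes lay 13 lncRNAs, at 8 of the genes (all but Ccnd1 and Cdkn2c), and 10 of them passed the filter. At D4, 4 were upregulated and 1 downregulated, where 10.1% of all tested lncRNAs were called. At D7, 2 were upregulated, against 5.79%. None was called between D4 and D7 by edgeR or by DESeq2, none had an unadjusted p under 0.05 in edgeR, and 0.249% of all lncRNAs were called there. These calls were less stable than those of the genes: leaving out any single library of the 6 brought the count down to 1 or 2 at D4 and to 1 at D7.

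NONRATT017172.2 (20:6357941-6358869) overlaps the end of the Cdkn1a span. Its counts were 48 and 37 in control, 243 and 333 at D4, and 322 and 263 at D7, and it was upregulated on both days (log2 fold change 2.59, SE 0.23, edgeR, Benjamini-Hochberg adjusted p = 0.00477, and 2.69, SE 0.24, adjusted p = 0.0069). NONRATT002565.2 (1:94485832-94494404) covers nearly the whole span of Ccne1 and had counts of 2 and 4, 85 and 24, and 32 and 37 (4.00 at D4, SE 0.85, edgeR, Benjamini-Hochberg adjusted p = 0.0419). Whether the counting used the strand is not stated, so fragments of these lncRNAs and of the genes they overlap cannot be told apart. NONRATT003375.2 spans Cdkn1c and had counts of 1 and 114, 19 and 1, and 1 and 5, which differed more between rats of a group than between groups.

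The other 3 lncRNAs past the threshold lay outside the gene spans. NONRATT020977.2, 3945 bases from Cdkn1b (4:168697909-168720239), had counts of 3 and 6 in control, 53 and 46 at D4 and 27 and 31 at D7 (3.26 at D4, SE 0.45, edgeR, Benjamini-Hochberg adjusted p = 0.0132; 2.55 at D7, adjusted p = 0.0368). It rose where Cdkn1b fell. Gpr19, the nearest tested gene on the other side of Cdkn1b, also rose at D4 (counts 29 and 25, 136 and 143, 52 and 71; 1.85, SE 0.28, edgeR, Benjamini-Hochberg adjusted p = 0.00332). It was the 1 gene called at D4 among 18 nearest neighbours that are not members, where 21.9% of all tested genes were called. NONRATT022381.2 lies between Cdkn2a and Cdkn2b (5:107841689-107844601), 514 and 1350 bases from them, and had counts of 30 and 20, 65 and 100, and 70 and 55 (1.55 at D4, SE 0.32, edgeR, Benjamini-Hochberg adjusted p = 0.0385). NONRATT020956.2, 1400 bases from Ccnd2 (4:159670367-159673485), was downregulated at D4, with counts of 327 and 466, 197 and 216, and 229 and 245 (-1.11, SE 0.25, edgeR, Benjamini-Hochberg adjusted p = 0.0488).

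**Figure D5:**
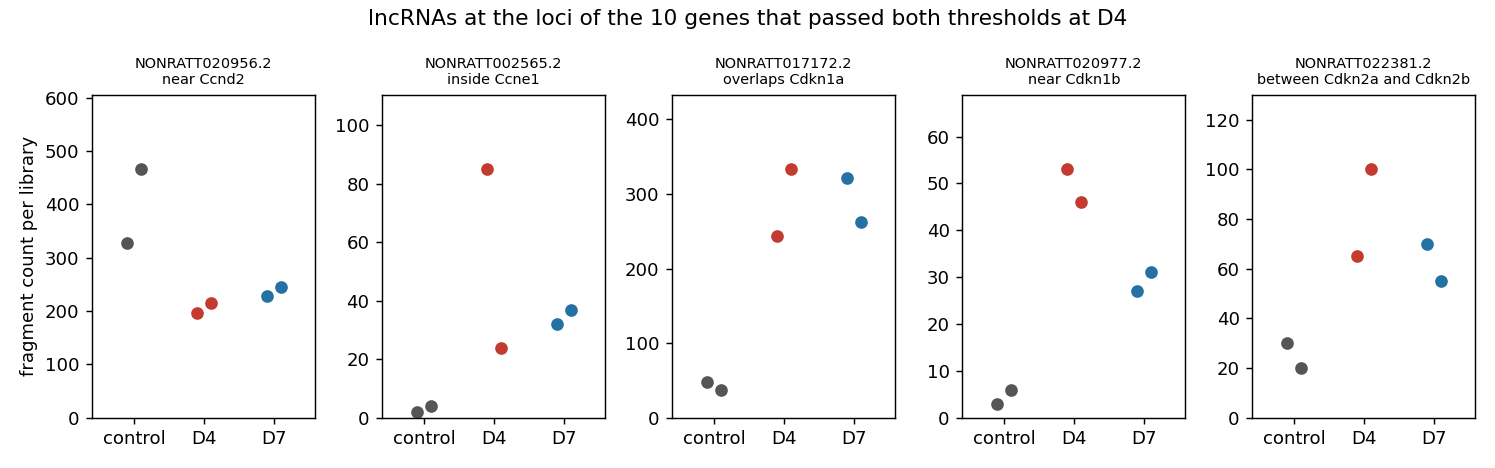
Fragment counts per library (y axis, from 0, not scaled to depth) of the 5 lncRNAs at the loci of the 10 genes that were called at D4, by group, with 1 point per rat. The count of NONRATT017172.2 was 48 and 37 in control and 243 to 333 in the 4 injured libraries, and NONRATT020956.2 was the lncRNA that went down.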

How the data were processed

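Total RNA of 6 sciatic nerves was depleted of rRNA and sequenced paired-end by the authors. Per the submitters' processing notes, reads were aligned with HISAT2 2.0.4 to Rnor_6.0 and fragments were counted per gene with StringTie 1.3.0. The authors deposited these counts, not normalized, for mRNAs and lncRNAs, each beside an FPKM value, which equals the count divided by the library's total in that table and by a length. The deposited tables were used as they are. Strand use in counting is not given in the sources used here.

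From the counts, 1 model per table was fitted over the 6 libraries in edgeR 4.0.16 (R 4.3.3; low-count filter, TMM, quasi-likelihood test, Benjamini-Hochberg adjustment over 15195 mRNAs or 14077 lncRNAs; SE from the F statistic). The thresholds were an adjusted p of 0.05 and 2-fold. Levels per length, sums over families and marker lists and their values by group are deposited FPKM, which carry no TMM factor (0.8633 and 0.8849 in control, 1.064 to 1.08 after injury); no test was run on them. With 2 rats per group, precision is limited. On simulated data the fit recovered 172 of 200 4-fold changes at D4 and 157 of 200 at D7, with 11 and 9 false calls. The simulation changed 200 of 15195 genes per day, as many up as down. In the deposited data 3333 genes were called at D4, so these rates may not carry over. Alternatives were DESeq2 1.42.0, other scalings, filters and thresholds, a replicate block and each library left out.

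The 10 genes, the lists and the motifs were chosen with earlier results of these data known. The text names all 10 genes, any partner or Rb and E2F gene, Mki67, the leading called genes of the other lists, the nearest tested neighbours, lncRNAs past the threshold and the most abundant other lncRNA of a locus. Outside that rule, Cdc25a was named after its values were seen. Some genes and a list covered by that rule are not reported here. Promoter sequences came from RefSeq (GRCr8), whose coordinates were not converted to Rnor_6.0.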

Additional observations from a re-analysis of the deposited data

Results flagged for a closer look

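Among the members, Cdkn1b alone passed both thresholds between the injury days in edgeR's fit: its log2 fold change from D4 to D7 was 1.17 (SE 0.11, edgeR, Benjamini-Hochberg adjusted p = 0.0117), which is the test of the difference itself, and it was higher in both D7 libraries than in both D4 libraries. Ccnd1 passed the adjusted p there (-0.85, SE 0.17, edgeR, Benjamini-Hochberg adjusted p = 0.0493) and not the 2-fold threshold.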

How the results depend on the processing

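No direction reversed among called values in any of the settings tried. The 6 called members at D4 were 5 to 8 in the alternatives. The 5 called at D7 became 8 with no fold threshold and 3 in a test of a change above 2-fold, where Ccne2 (Benjamini-Hochberg adjusted p = 0.0517, edgeR) and Cdkn2a were lost. The 1 called between D4 and D7 became 2 with no fold threshold, which added Ccnd1, 0 in the test above 2-fold, and 0 to 1 when a replicate was left out. Cdkn2a at D7 was also lost in a fit of the compared groups only (Benjamini-Hochberg adjusted p = 0.0651, edgeR) and had no value with at least 10 counts required in every library. The replicate letters mark different rats, and deviations of same-letter libraries correlated at 0.0103 (D4 and control), 0.195 (D7 and control) and -0.134 (D7 and D4). With a replicate block the members called were 6, 5 and 1, as without it, and exchanging the D4 letters, a choice made after seeing the data, gave the same counts. For lncRNAs at these loci the replicate block gave 2 at D4 and 1 at D7 in place of 5 and 2. Omitting the low-count filter gave 2 and 1, requiring overlap with the gene span gave 2 and 1, and leaving out a replicate gave 1 to 2 and 1 to 1. Depth limits Cdkn2a most, with 5 control fragments in all.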
